A study of Rattus norvegicus with 4 samples.

Results

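The genes described here encode the constitutive proteasome and the factors that assemble, activate or inhibit it. They were chosen by name, as the protein-coding genes of the deposited table whose symbols begin with Psma, Psmb, Psmc, Psmd, Psme, Psmf or Psmg and a number, without the immunoproteasome genes Psmb8, Psmb9 and Psmb10 and the activator genes Psme1 and Psme2. The rule found 43 of 17768 genes. By their known roles, 14 encode subunits of the core particle made in all tissues (7 alpha, 7 beta), 1 (Psma8) a testis form of an alpha subunit, 17 subunits of the regulatory particle, 7 assembly chaperones, and 3 activators or inhibitors (Psme3, Psme4 and Psmf1). The remaining gene, Psmc3ip, shares the name only: it encodes a partner of Psmc3 that acts in meiotic recombination. The thymus subunit gene Psmb11 had no row in the table.

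RNA was sequenced from NRK-52E, a long-established rat kidney epithelial cell line, in 2 libraries titled lv_nc and 2 titled lv_Mettl3. A lentivirus, by the protocol of the labels collected at 48 h from packaging cells, carried a murine Mettl3 cDNA, the m6A methyltransferase, under a vector with puromycin resistance, and stable cells were selected at 0.5 mg/ml and maintained at 0.25 mg/ml, with serum at 10% in the medium. The protocol is attached to all 4 samples, which also share the treatment label untreated. The meaning of nc, whether each line was a single clone, and whether replicates came from separate cultures are not stated, so the p-values cover only the scatter among these libraries, and that scatter may be technical.

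Facts of the whole series bear on how the values are read. Gene reads per library ranged from 15068898 to 16622255. Mettl3 itself did not separate the groups, with normalized counts of 719 and 767 in lv_nc and 757 and 700 in lv_Mettl3, so lv_nc and lv_Mettl3 mean here the libraries so labelled. Whether reads of the murine cDNA were counted for the rat gene was not tested. Among proximal tubule markers, Hnf4a, Slc34a1, Slc22a6 and Slc22a8 had no row and Lrp2, Slc5a1, Aqp1 and Mme had a mean under 10, while the brush border peptidase gene Ggt1 had 2412 and 2530 in lv_nc, against 3294 and 3757 in lv_Mettl3 (called higher by DESeq2 and not by limma). The list summed to 2484 and 2614, against 3369 and 3862, most of it Ggt1. Of its 8 tested markers 3 lay above 0 and 5 below, with a median log2 fold change of -0.095. Among epithelial markers Krt8 and Tjp1 were abundant, 3 of the 6 with a row had a mean under 10, and Krt18 and Epcam had no row. Fibroblast markers moved with the groups: 4 of the 6 with a row were called lower by DESeq2 (against 1.07% of all genes) and 0 by limma or edgeR, the other 2 lay above 0, and the summed count of the 6 was 10026 and 16262 in lv_nc and 3432 and 2726 in lv_Mettl3. Dcn, Lum, Pdgfrb and Thy1 had no row. Leukocyte and endothelial markers summed to 31.8 to 78.5. The part of these in the values that follow was not tested. In bulk RNA, fewer cells of a type and less RNA per cell cannot be told apart.

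The proteasome degrades proteins tagged with ubiquitin. Its core particle is a barrel of stacked alpha and beta rings, with the cutting sites inside on 3 of the beta subunits. A regulatory particle caps the barrel: its ATPase ring unfolds the substrate, and its lid removes the ubiquitin chain. When the proteasome is impaired, the transcription factor NRF1 (gene Nfe2l1) raises the subunit genes together through antioxidant response elements in their promoters. In tubular cells, as in other cells, the complex is made at all times and is among the abundant cytosolic machines.

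The 250 bases before the gene start are shown for the catalytic subunits Psmb5, Psmb6 and Psmb7, because these 3 genes carry the cutting sites and their differences between the groups pointed in opposite directions. Sequences are from RefSeq on build GRCr8, written 5′ to 3′ on the strand of the gene: chr15:32047380-32047629 on the minus strand for Psmb5, chr10:55737638-55737887 on the plus strand for Psmb6, and chr3:42827471-42827720 on the minus strand for Psmb7. Capitals mark letters that match, on either strand, the antioxidant response element core (TGACNNNGC or TGAGNNNGC), the CCAAT box bound by NF-Y (CCAAT) or the GC box bound by Sp1 factors (GGGCGG).
Psmb5: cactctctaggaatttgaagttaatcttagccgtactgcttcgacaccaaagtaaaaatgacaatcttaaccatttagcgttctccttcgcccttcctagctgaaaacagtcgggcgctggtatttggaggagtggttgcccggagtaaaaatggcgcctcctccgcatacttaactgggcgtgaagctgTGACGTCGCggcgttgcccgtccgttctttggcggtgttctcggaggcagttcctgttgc
Psmb6: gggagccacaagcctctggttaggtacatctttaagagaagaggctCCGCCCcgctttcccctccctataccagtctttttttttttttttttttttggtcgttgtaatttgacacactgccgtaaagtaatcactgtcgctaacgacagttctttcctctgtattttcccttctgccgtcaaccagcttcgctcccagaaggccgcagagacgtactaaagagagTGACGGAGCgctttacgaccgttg
Psmb7: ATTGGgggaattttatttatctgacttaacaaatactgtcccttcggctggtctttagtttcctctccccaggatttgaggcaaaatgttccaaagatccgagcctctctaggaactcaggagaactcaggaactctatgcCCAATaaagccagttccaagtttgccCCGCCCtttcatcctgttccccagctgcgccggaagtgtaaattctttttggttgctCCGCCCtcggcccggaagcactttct
Psmb5 and Psmb6 each held a match to the antioxidant response element core, TGACGTCGC starting 60 bases before the gene start in Psmb5 and TGACGGAGC starting 24 bases before it in Psmb6. Psmb7 held none in this window, and held CCAAT and GC box matches. Among the other members whose groups did not overlap, Psma3, Psma5 and Psmd5, higher in lv_Mettl3, held a response element match. So did Psmd2 and Psmd9, lower in lv_Mettl3. The higher Psmc3, Psmd8 and Psmg2 and the lower Psmb1, Psmb4 and Psma1 did not. Whether a match goes with the direction of a difference was not tested.

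Promoter windows were found for 39 of the 43 genes. Psma7, Psmd6, Psmd12 and Psmd14 were not matched. The antioxidant response element core matched in 15 of 39 windows (38.5%), against 22.8% of all 33469 windows in the table and 27.5% of the 8252 windows of protein-coding genes with a mean normalized count of at least 100. CCAAT matched in 20 (51.3%, against 34.0% and 35.8%) and the GC box in 28 (71.8%, against 30.5% and 61.3%). These are matches of letters, which can overlap one another, and are not binding sites.

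The genes for core and regulatory subunits were expressed at high and similar levels in all 4 libraries. Levels are given as normalized counts per kb of deposited gene length, as means ± SD over the 4 libraries. The members took 0.782% to 0.815% of the gene reads of a library, and 41 of 43 lay above the median of all genes tested, 119.6 per kb. The 14 core genes had a median of 2680 per kb. The highest was Psmb3, a non-catalytic beta subunit (5696 ± 107), followed by Psmb4 (4606 ± 116) and, in the alpha ring, Psma1 (3949 ± 227). The lowest were Psma4 (724 ± 65.7), Psmb7 (1027 ± 96.9) and Psma3 (1182 ± 41.1). Psma3 and Psma4 have the longest deposited lengths of the core genes, 3559 and 3909 bases, so their order depends on those lengths. So does that of Psmb7, at 1696 bases against 717 for Psmb6. By mean normalized count Psmb7 (1742) lay slightly above Psmb6 (1674). The core range of 7.87 times lies between genes whose proteins are present in equal numbers in the particle.

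**Figure D1:**
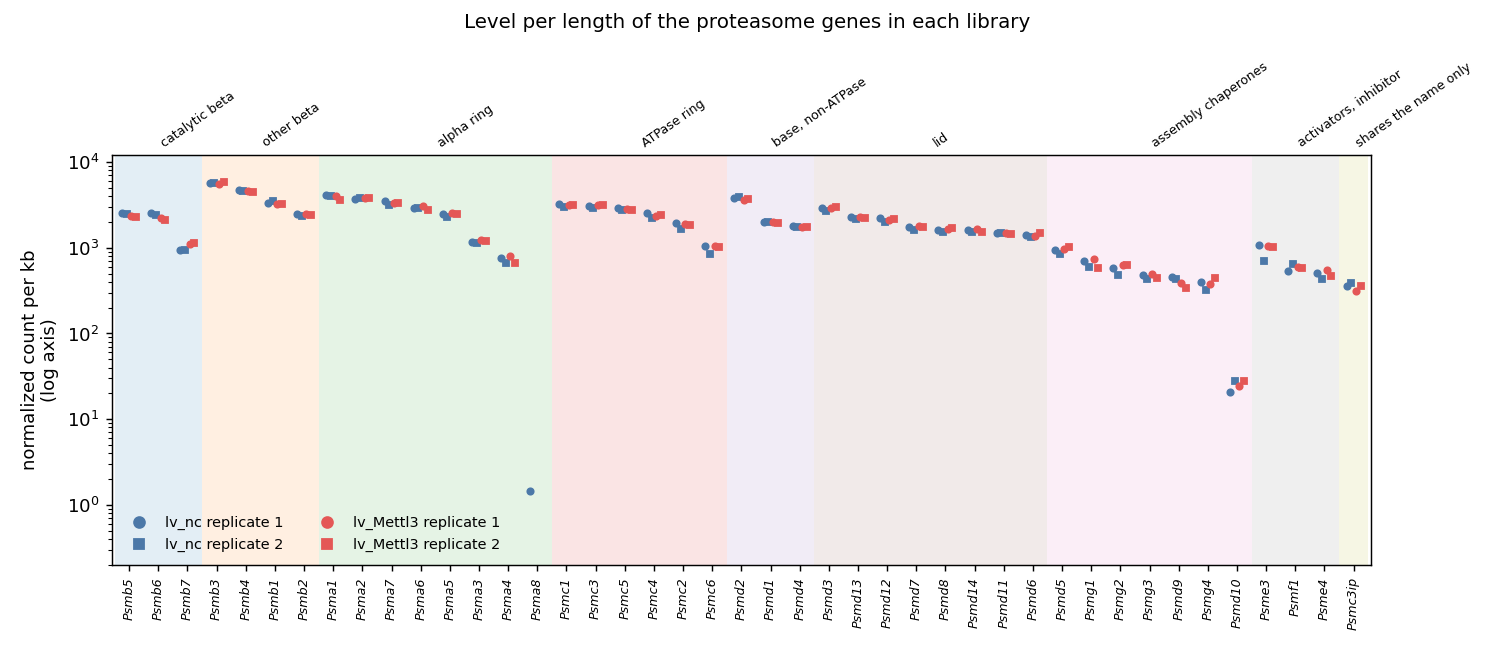
Normalized count per kb of deposited length (log axis) of each proteasome gene in each library, grouped by role and ordered by mean within a role. The 4 libraries of a gene lie close together, Psmd10 and Psma8 lie far below the rest, and values of 0 (Psma8 in 3 libraries) are not drawn.

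In the regulatory particle the 17 genes had a median of 2002 per kb and a range of 3.80 times. Psmd2, a scaffold of the base that also binds ubiquitin-like domains, was highest (3772 ± 146), ahead of the ATPase genes Psmc1 (3129 ± 118) and Psmc3 (3089 ± 102), which do not differ beyond their spread. The ATPase gene Psmc6 was lowest (992 ± 100). Lid genes lay in a narrow range, from 1407 ± 57.1 for Psmd6 to 2886 ± 120 for Psmd3. Psmd14, the deubiquitinase of the lid, was at 1580 ± 59.8.

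The median over the assembly chaperone genes was lower than over the subunit genes, 463 per kb, with levels from 25.1 ± 3.53 for Psmd10 to 947 ± 71.4 for Psmd5. The activator gene Psme3, which encodes the nuclear activator PA28 gamma, was at 958 ± 177, the inhibitor gene Psmf1 at 586 ± 50.1, and Psme4, which encodes PA200, at 492 ± 51.6. Psmc3ip was at 354 ± 30.7.

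The members near the floor were Psmd10 and Psma8. Psmd10 (gankyrin), which helps to assemble the ATPase ring, had normalized counts of 10.7 and 14.8 in lv_nc and 12.7 and 14.5 in lv_Mettl3. Psma8, the testis alpha subunit, had 2.93 in lv_nc replicate 1 and 0 in the other libraries. It was the one member not tested, since testing required that 2 or more libraries reach a normalized count of 1. How reads shared with near-identical copies were counted is unknown, so low values such as that of Psmd10 are uncertain.

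Between the groups, no member passed the test. Limma on log2(normalized count + 1), with Benjamini-Hochberg adjustment over all 16391 genes tested, called 0 of 42 members, against 0.0183% of all genes, and edgeR called 0 of 42 against 0.0305%. DESeq2, which called more genes, called 0 of the 41 members with an adjusted p, against 2.52% of all genes. At an unadjusted p under 0.05, limma had 1 member (Psmb7), against 10.5% of all genes, edgeR 1 against 10.1% and DESeq2 0 against 7.44%. In the authors' deposited table, 0 of 43 members had an adjusted p under 0.05, and the smallest was 0.685.

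The size of the differences was small. Log2 fold changes of lv_Mettl3 minus lv_nc lay between -0.29 (Psmd9) and 0.27 (Psme3), with a median of 0.021 over the 42 members and 0.0051 over all genes tested. The median absolute log2 fold change was 0.056 over the members, 0.23 over all genes and 0.13 over the 3943 genes whose mean normalized count reached 1000, as did that of 34 members. No member differed by more than 1.5-fold, as 20.9% of all genes and 3.45% of those 3943 did.

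How large a change the 4 libraries leave possible was read from the 95% intervals of limma. These lay wholly within 1.5-fold in either direction for 37 of 42 members. Above a mean of 1000 they did so for 33 of 34 members (97.1%), against 75.8% of all such genes. The intervals of Psmd9, Psmd10, Psmg2, Psmg4 and Psme3 reached beyond 1.5-fold, so a change of that size in those genes was within the error.

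**Figure D2:**
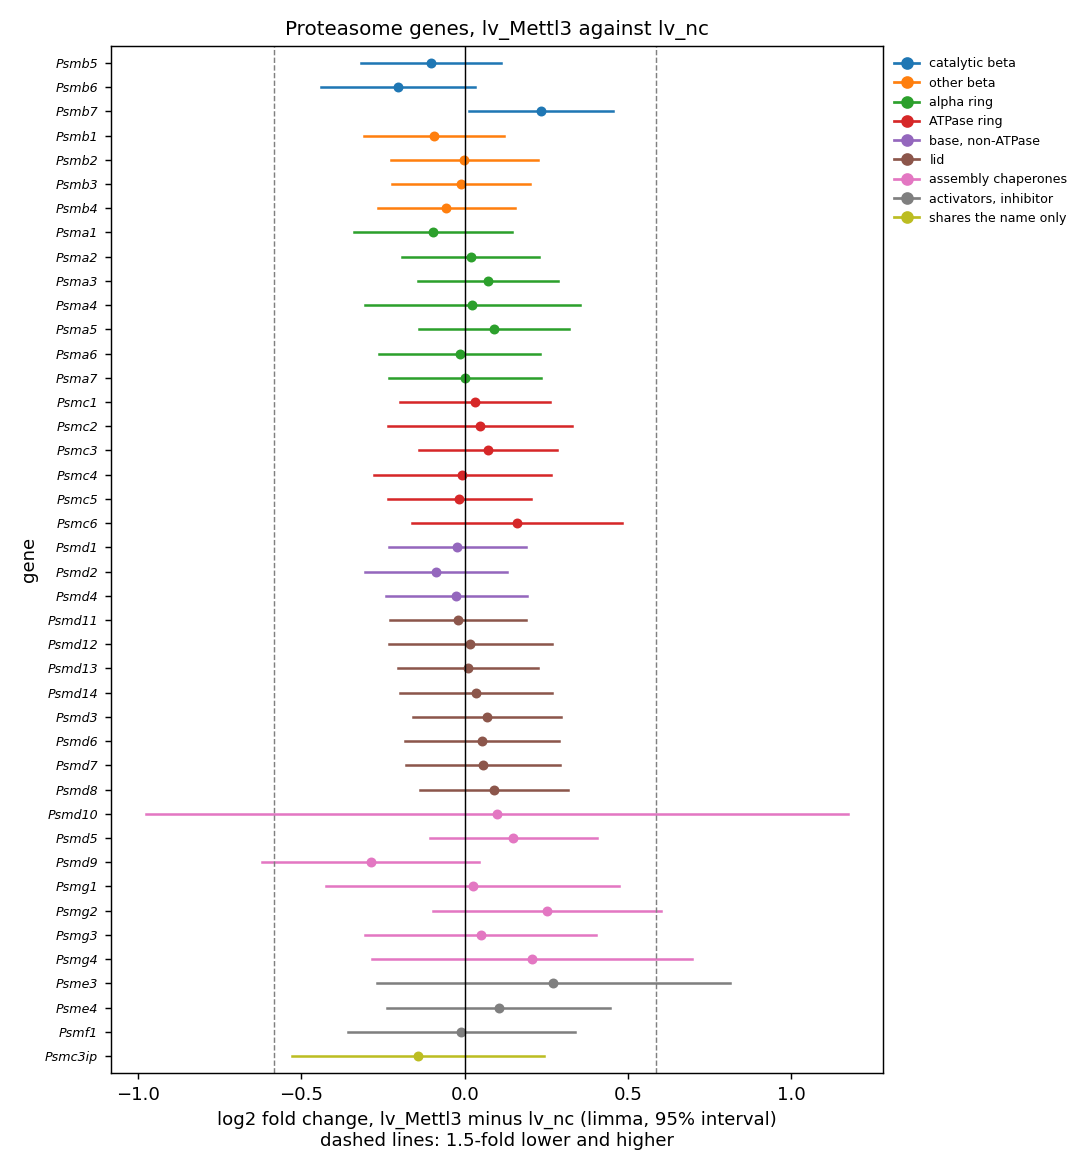
Log2 fold change of lv_Mettl3 minus lv_nc for the 42 tested proteasome genes, with limma's 95% interval as a bar, coloured by role. The points lie between -0.29 and 0.27, and only the interval of Psmb7 does not cross 0.

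Of the 42 members 25 lay above 0 and 17 below, against 50.7% of all genes above 0. With TMM scaling it was 27 above and 15 below, and with library size scaling, which lowered the median of all genes from 0.0051 to -0.035, it was 17 above and 25 below. Both libraries of lv_Mettl3 lay above both of lv_nc in 7 members (16.7%, against 23.5% of all genes) and below both in 7 (16.7%, against 21.5%), together 14 of 42 against 45.0% of all genes. The higher ones were Psmb7, Psma3, Psma5, Psmc3, Psmd5, Psmd8 and Psmg2, and the lower ones Psmb1, Psmb4, Psmb5, Psmb6, Psma1, Psmd2 and Psmd9. Among the 41 members with a mean of at least 100, these counts were 5 higher and 14 lower with library size scaling (19.0% and 29.5% of all such genes), and 8 and 6 with TMM scaling (23.9% and 23.4%).

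The 3 catalytic genes differed in opposite directions by amounts that did not pass the test. Psmb7, the trypsin-like site (ENSRNOG00000011732, chromosome 3, 22871105 to 22952063 in the authors' file, of unstated build), gave normalized counts of 1608 and 1594 in lv_nc and 1856 and 1910 in lv_Mettl3. The groups did not overlap, and the means were 1601 ± 9.78 and 1883 ± 37.7 (SD, n = 2 libraries). The log2 fold change was 0.23 (SE 0.09, 95% interval 0.01 to 0.45, limma adjusted p = 0.471), the smallest p of any member.

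Psmb6, the caspase-like site (ENSRNOG00000019551, chromosome 10, 57131386 to 57133637), had 1845 and 1740 in lv_nc, against 1592 and 1519 in lv_Mettl3. Here both lv_Mettl3 libraries were the low ones (log2 fold change -0.20, SE 0.09, 95% interval -0.44 to 0.03, limma adjusted p = 0.502). Psmb5, the chymotrypsin-like site and the main target of proteasome inhibitor drugs (ENSRNOG00000013386, chromosome 15, 33259043 to 33263659), had 2194 and 2181 in lv_nc, against 2059 and 2017 in lv_Mettl3, also without overlap (log2 fold change -0.10, SE 0.084, 95% interval -0.32 to 0.11, limma adjusted p = 0.656). Over the alternatives, apart from DESeq2 on 3 libraries, where single members were not tabulated, the log2 fold change lay between 0.19 and 0.25 for Psmb7, -0.25 and -0.16 for Psmb6 and -0.14 and -0.09 for Psmb5, with adjusted p from 0.162 to 0.951 for Psmb7.

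**Figure D3:**
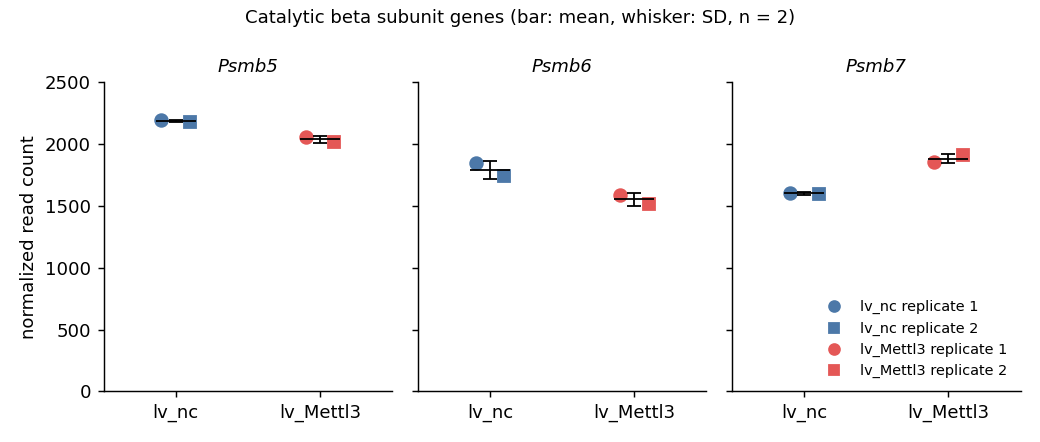
Normalized read counts of the catalytic beta subunit genes in each library, with the group mean (bar) and SD (whisker, n = 2). Psmb5 and Psmb6 are lower and Psmb7 higher in both lv_Mettl3 libraries than in both lv_nc libraries, by differences that did not pass the adjusted test.

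The level per length of Psmb7 relative to Psmb6 was 0.369 and 0.387 in lv_nc, and in lv_Mettl3 it was 0.493 and 0.531. Relative to Psmb5 it was 0.377 and 0.376, and 0.464 and 0.487. These ratios were formed after the values were seen and are given without a test. A ratio of 2 genes in a library does not depend on the scaling between libraries, but its size depends on the deposited lengths of both genes.

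The other beta genes form the ring without cutting. Psmb1 had 3590 and 3766 in lv_nc, against 3427 and 3470 in lv_Mettl3 (log2 fold change -0.093, SE 0.08, and -0.058 without lv_nc replicate 2). Psmb2 had 2210 and 2082, and 2162 and 2126, a log2 fold change that changed sign between scalings. Psmb3 had 4703 and 4717, and 4572 and 4783, so the groups overlapped. All 4 had a log2 fold change below 0, and limma's adjusted p was from 0.689 to 0.998.

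In the alpha ring, whose subunits form the gate of the barrel, 5 of 7 tested genes lay above 0 and 2 below. Psma5 had 2478 and 2292 in lv_nc, against 2550 and 2525 in lv_Mettl3, the largest positive difference of the ring (log2 fold change 0.09, SE 0.09). Psma1 had 4844 and 4732, and 4724 and 4246, the largest negative one (-0.10, SE 0.09). Both had groups that did not overlap, but Psma1 did so by a margin of 4732 to 4724. Leaving out 1 library, Psma5 ranged from 0.034 (without lv_nc replicate 2) to 0.15 (without lv_nc replicate 1), and Psma1 from -0.17 (without lv_Mettl3 replicate 1) to -0.019 (without lv_Mettl3 replicate 2). Psma2 was the steadiest member, with a highest library 1.03 times its lowest (3221, 3326, 3312 and 3317). Limma's adjusted p in the ring was from 0.710 to 0.999.

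Of the 6 ATPase genes 4 lay above 0 and 2 below, with a median of 0.040. Psmc6 had 2462 and 2005 in lv_nc, against 2525 and 2443 in lv_Mettl3 (log2 fold change 0.16, SE 0.13, limma adjusted p = 0.644). The low library was lv_nc replicate 2, without which the log2 fold change was 0.013; without lv_nc replicate 1 it was 0.31. Psmc5 had 3747 and 3528, and 3643 and 3550, with a log2 fold change of -0.016.

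In the base, Psmd2, the most abundant transcript of the set by count, had 11274 and 11620 in lv_nc, against 10626 and 10925 in lv_Mettl3. Both lv_Mettl3 libraries were lower (log2 fold change -0.087, limma adjusted p = 0.709). Psmd1, its partner scaffold, had 6186 and 6229, and 6229 and 6001, with overlap. The ubiquitin receptor gene Psmd4 had 2546 and 2445, and 2457 and 2444.

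Lid genes differed little, with 7 of 8 above 0 and 1 below. Their log2 fold changes ran from -0.021 for Psmd11 (5035 and 4941 in lv_nc, 4976 and 4858 in lv_Mettl3) to 0.090 for Psmd8 (2462 and 2319, 2487 and 2601). All 8 intervals lay between -0.23 and 0.32. Psmd8 gave 0.047 without lv_nc replicate 2 and 0.058 without lv_Mettl3 replicate 2. Psmd14, the deubiquitinase, had 2541 and 2403 in lv_nc, against 2616 and 2450 in lv_Mettl3 (log2 fold change 0.035, limma adjusted p = 0.902).

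Assembly chaperone genes had wider differences and wider errors. Psmd9, a chaperone of the ATPase ring, had 607 and 585 in lv_nc, against 526 and 453 in lv_Mettl3. Both lv_Mettl3 libraries were lower, and the log2 fold change of -0.29 was the largest negative one of the set (SE 0.13, 95% interval -0.62 to 0.04, limma adjusted p = 0.502). It was -0.18 without lv_Mettl3 replicate 2 and -0.40 without lv_Mettl3 replicate 1. Psmg2, which helps to build the alpha ring, had 697 and 571, and 759 and 745, a log2 fold change of 0.25 (limma adjusted p = 0.540, SE 0.14) with lv_Mettl3 higher. Its log2 fold change was 0.11 without lv_nc replicate 2 and 0.40 without lv_nc replicate 1. The obligate partner of Psmg2, Psmg1, had 710 and 594, and 751 and 581, with the groups overlapping. In both genes replicate 2 was lower than replicate 1 in each group. Whether the partners differ was not tested. Psmd5, another chaperone of the base, had 2104 and 1876, and 2162 and 2245 (log2 fold change 0.15, SE 0.10, limma adjusted p = 0.596), and gave 0.066 without lv_nc replicate 2 and 0.23 without lv_nc replicate 1.

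The value of Psme3 rested on 1 library. It had 2783 and 1814 in lv_nc, against 2741 and 2686 in lv_Mettl3, so lv_nc replicate 2 stood apart and the other 3 libraries lay together. The log2 fold change was 0.27 (limma adjusted p = 0.643, SE 0.21). It was -0.037 without lv_nc replicate 2 and 0.58 without lv_nc replicate 1, a fit that leaves replicate 2 as the only lv_nc library. Psmf1 had 733 and 901, and 815 and 798, with the widest gap again between the lv_nc libraries. Psme4 had 3644 and 3116, and 3953 and 3319, with replicate 2 lower in both groups.

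Differences between replicates were of the same order as those between groups, though the measures are unlike. A replicate difference is between single libraries, and a group difference is between means of 2 libraries. The replicate difference is therefore expected to scatter more. Of the 41 members whose mean reached 100, 33 (80.5%) were lower in lv_nc replicate 2 than in replicate 1, as were 51.1% of all 10051 such genes, with a median log2 difference of -0.084 against -0.0074. The ATPase genes were lower there in 6 of 6 and the lid genes in 8 of 8. With library size scaling these counts were 28 of 41 (against 45.6% of all such genes), 6 of 6 and 7 of 8. With TMM scaling they were 36 (against 53.1%), 6 and 8. Above a mean of 1000 the gap was smaller, with 28 of 34 members (82.4%) and 57.9% of all genes lower in lv_nc replicate 2 and medians of -0.082 and -0.047. Replicate 2 was also the lower one in lv_Mettl3 for 27 of 41 members (65.9%, against 47.9% of all genes), with a member median of -0.024. With library size scaling it was the lower one for 29 of 41 (against 48.4% of all such genes).

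**Figure D4:**
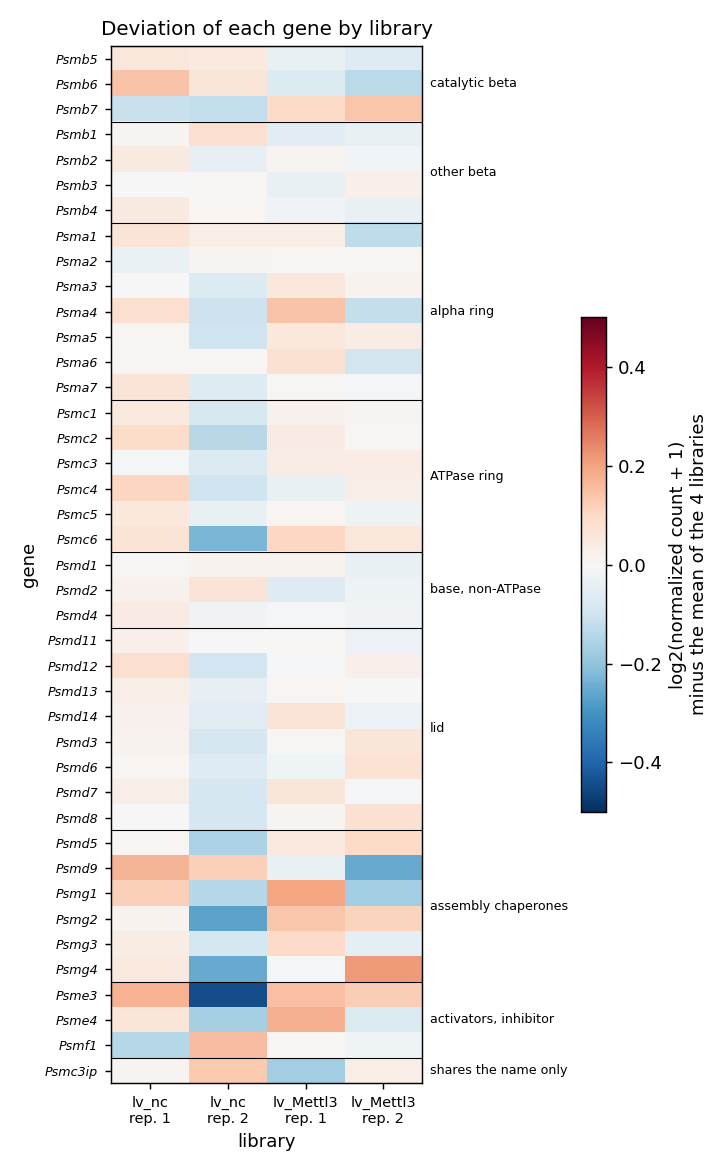
Log2(normalized count + 1) of each proteasome gene with a mean of at least 100, minus its mean over the 4 libraries (red above, blue below), ordered by role. Blue runs through the ATPase ring and lid in lv_nc replicate 2, Psme3 is lowest there, and in each catalytic gene both libraries of a group share a colour.

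The spread of the members was smaller than that of all genes. Between replicates, log2 differences had an SD of 0.14 for the members and 0.41 for all genes with a mean of at least 100 in lv_nc, and 0.11 and 0.29 in lv_Mettl3. The members are more abundant, with a median normalized count of 2829 against 738. Above a mean of 1000 the SDs were 0.12 for 34 members and 0.30 for all 3943 genes in lv_nc, and 0.082 and 0.17 in lv_Mettl3. These are descriptions over genes that share libraries, given without a test.

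**Figure D5:**
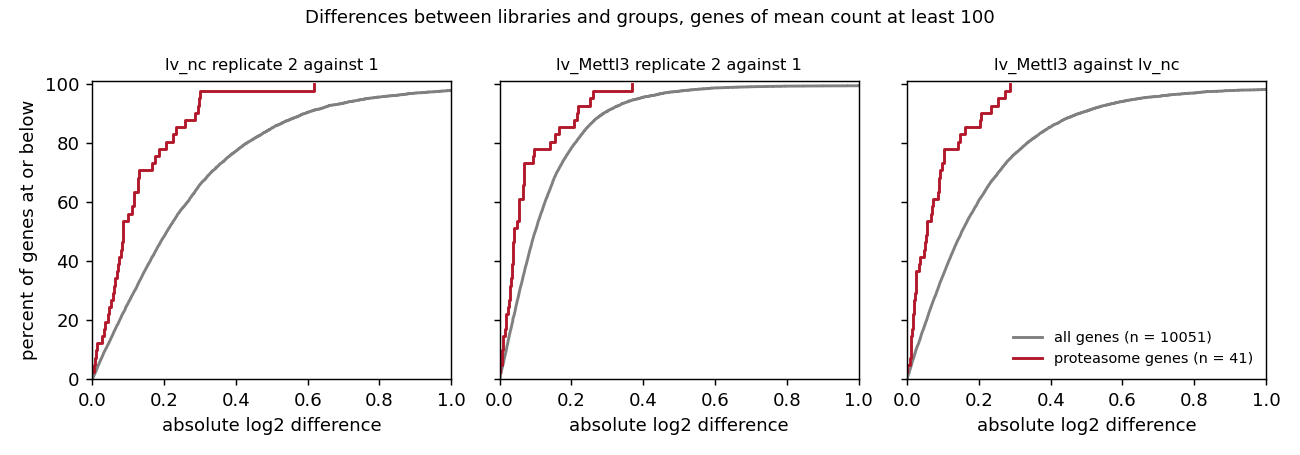
Percent of genes at or below each absolute log2 difference (x axis, drawn to 1), between the replicates of each group and between the groups, for 41 proteasome genes (red) and all 10051 genes (grey) with a mean of at least 100. The median absolute difference was 0.086 for the members and 0.21 for all genes between lv_nc replicates, 0.041 and 0.099 between lv_Mettl3 replicates, and 0.056 and 0.15 between the groups. Replicate differences are between single libraries and group differences between means of 2, so their sizes are not directly comparable.

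The immunoproteasome counterparts were lower than the constitutive catalytic genes in all libraries. Per length, Psmb8 was at 0.0596 to 0.0950 of Psmb5, Psmb9 at 0.129 to 0.221 of Psmb6, and Psmb10 at 0.497 to 0.607 of Psmb7, with the ranges of the groups overlapping for each pair. The size of these ratios depends on the deposited lengths. Limma and DESeq2 called 0 of these 3 genes and the 2 genes for the PA28 alpha and beta activators, of which Psme1 had 6.20 or fewer counts in each library, a value that is uncertain for the same reason as that of Psmd10. Psmb8 had 352 and 490 in lv_nc, against 291 and 340 in lv_Mettl3 (log2 fold change -0.40, limma adjusted p = 0.534), and Psmb10 had 469 and 549, against 662 and 617 (0.33, limma adjusted p = 0.486). The groups did not overlap in these 2 genes and in Psme1, with 2 of the 5 higher and 1 lower, against 45.0% of all genes in either direction. The most abundant of the 5, Psme2, had 1701 and 2302 in lv_nc, against 1728 and 1888 in lv_Mettl3.

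Other genes of the pathway were taken from lists chosen by role. Of 5 genes for further subunits and assembly factors 0 were called by limma or DESeq2. The most abundant, Ecpas, which encodes a proteasome scaffold, had 3418 and 2750 in lv_nc, against 3787 and 3409 in lv_Mettl3 (log2 fold change 0.23, limma adjusted p = 0.562). Pomp, which matures the core, had 5.86 to 15.5 counts, while LOC100911238, described as proteasome maturation protein-like and on the same chromosome 12, had 1037 and 381 in lv_nc, against 862 and 520 in lv_Mettl3, so Pomp is uncertain.

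Among 12 deubiquitinases, shuttle factors and regulators bound to the proteasome, limma called 0 and DESeq2 called 1, higher (against 1.45% of all genes). This was Ubqln2, a shuttle that carries ubiquitinated proteins to the proteasome, which rose in DESeq2 from 3241 and 3007 in lv_nc to 4289 and 4472 in lv_Mettl3 (log2 fold change 0.49 ± 0.14 (SE) and adjusted p = 0.0327 in DESeq2, against 0.372 in limma). The most abundant gene of that list, Rad23b, had 7831 ± 880 and 8229 ± 75.9.

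Of 11 genes that control or carry out the NRF1 response, limma called 0 and DESeq2 called 1, higher (against 1.45% of all genes). Maff, a small Maf protein that pairs with NRF1 and NRF2, rose in DESeq2 from 330 and 296 to 553 and 637 (log2 fold change 0.93 ± 0.22 (SE) and adjusted p = 0.00285 in DESeq2, against 0.320 in limma). Nfe2l1 itself had 5615 and 7250 in lv_nc, against 5256 and 5650 in lv_Mettl3 (limma log2 fold change -0.23, SE 0.15, adjusted p = 0.584), with the 2 groups overlapping.

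Of 12 genes of the p97 segregase and its partners, which extract substrates for the proteasome, 0 were called by limma or DESeq2. Vcp, which encodes p97, had 13371 ± 663 and 13949 ± 278. Of 7 rows for ubiquitin and its activating enzymes 0 were called, and the most abundant, the activating enzyme gene Uba1, had 7966 ± 115 and 7690 ± 179. Of 8 cytosolic chaperone genes 0 were called, with Hspa8 at 29814 and 19351 in lv_nc and 32144 and 29947 in lv_Mettl3. The medians of these lists lay between 0.020 and 0.18 in limma log2 fold change, the last that of the NRF1 list, and that of the immunoproteasome list was -0.10.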

How the data were processed

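The deposited table gives 17768 genes of 4 NRK-52E libraries. CASAVA 1.4 and HISAT2 are the tools listed in the submitters' processing notes; the counter, its strand setting, the build and the annotation are not given in sources used here. Library columns hold a normalized signal, made by the authors as whole gene reads over a size factor of each library: within 0.001 reads, 100% of values were whole multiples of the smallest positive value. Per the file headers, log2 fold changes with p-values of the authors' comparison are also deposited. The deposited group means and the shorter table of selected genes were not used.

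Groups and replicate numbers came from the titles. Differences were tested by limma 3.58.1 with a trend, using log2(value + 1), for genes reaching 1 in 2 or more libraries, and adjusted by Benjamini-Hochberg at 0.05. This scale understates fold changes at low counts. As alternatives, edgeR 4.0.16 and DESeq2 1.42.0 (R 4.3.3) were run on the recovered reads. The limma fit was tested on simulated data. The members and lists were chosen with earlier results of these data known. Library values are given for the catalytic genes, the extremes of each role, the 5 smallest p-values, and the highest and lowest level per length. They are also given for the called and most abundant genes of other lists. Psmb4, Psmd4, Psmd14, Psma2, Psmg1, Psme4 and Psmd10 were added after their values were seen. Mettl3, Psmb8, Psmb10, Pomp, LOC100911238, LOC100361067 and LOC100360846 are given outside these choices. Promoters are from RefSeq (GRCr8), whose coordinates differ from those of the authors' file. Depth was 15068898 to 16622255 gene reads per library.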

Additional observations from a re-analysis of the deposited data

How the results depend on the processing

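Of all settings tried, 1 called a member: DESeq2 without lv_nc replicate 1, added after the data were seen, called 1 (Psme3). The median log2 fold change of the members was -0.021 to 0.083 over fits that left out 1 library (0.083 without lv_nc replicate 1). The count of all genes called was 3 in limma, 0 with a pseudocount of 0.1, 5 with at least 1 CPM in all 4 libraries, with limma-voom and with edgeR, 24 with robust empirical Bayes and 318 with DESeq2. Leaving out 1 library, limma called 0 genes in each of the 4 fits, and DESeq2 called 1547 and 217 (lv_nc replicates 1 and 2 left out) or 56 and 61 (lv_Mettl3 replicates 1 and 2 left out), with the lone library assumed to vary like the other group. With a replicate block limma called 3 genes and 0 members, with a member median of 0.021. Same-numbered libraries deviated together over 10051 genes (r = 0.33), but 2 pairs do not show that the numbers pair the samples.

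Single members were followed over the settings if tested and given by library, apart from those added after their values were seen. Among the members followed, log2 fold changes of 6 changed sign under some setting: Psme3, at 0.27 with all libraries, and 5 near 0. That of Psmb2 was 0.0069 with TMM scaling, 0.0081 with limma-voom and 0.0069 with edgeR. Over the fits that left out 1 library, it ranged from -0.044 to 0.042 for Psmb2, -0.043 to 0.022 for Psmb3, -0.059 to 0.027 for Psmc5, -0.049 to 0.0049 for Psmd1, -0.037 to 0.58 for Psme3 and -0.16 to 0.14 for Psmf1. The cause was not tested. Only the intervals of 5 members reached beyond 1.5-fold, and 2 libraries a group limit what smaller changes can be told from 0.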

Other observations

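Other rows of the table are described as proteasome genes and fall outside the naming rule. LOC100361067, a processed pseudogene described as proteasome subunit alpha type-3-like, had normalized counts of 21.5 and 23.1 in lv_nc and 47.7 and 41.3 in lv_Mettl3 (limma log2 fold change 0.96, SE 0.32, adjusted p = 0.464), far below Psma3. LOC100360846, described as proteasome subunit beta type 6-like, had 26.4 and 9.23 in lv_nc, against 23.3 and 14.5 in lv_Mettl3, against 1519 or more for Psmb6 in each library.

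The members are spread over 17 chromosomes of the authors' file, with 8 of 43 (18.6%) on chromosome 10, which holds 8.63% of the protein-coding genes of the table. The closest pair is Psmb4 and Psmd4 on chromosome 2, with 151.7 kb between them. Psmb4 had 3990 and 3889 in lv_nc, against 3813 and 3767 in lv_Mettl3, without overlap, and Psmd4 had 2546 and 2445 against 2457 and 2444, with overlap.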
